A study of Mus musculus with 6 samples.

Results

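Aminoacyl-tRNA synthetases join each amino acid to its transfer RNA. Their genes were followed in mouse T helper cells with and without the calcium sensor gene Stim1. The members were a list of 39 genes, 20 whose enzymes work mainly in the cytosol and 19 that serve mitochondria, and all 39 were found among the 23420 rows of the deposited table, 38 by their own symbol and Gatb by its older symbol Pet112. All 39 also passed the filter for testing, a mean of at least 10 normalised counts. Cells of the genotype Stim1fl/fl Stat3CSTOPfl/fl CD4-Cre, named Stim1KO Stat3C here, were set against cells of the genotype Stat3CSTOPfl/fl CD4-Cre, named Stat3C, with 3 libraries each. Both groups were C57BL/6 cells and both carried Stat3C, a constitutively active STAT3 that is expressed once Cre, driven by the Cd4 promoter and so active from T cell development on, has removed a stop sequence. There was no group with normal STAT3, so the effect of losing Stim1 was measured only on that background. For 2 days, naive CD4 T cells had received antibodies to CD3 and CD28 and the cytokines IL-23, IL-1b and IL-6, conditions that yield pathogenic Th17 cells. The labels give neither the age nor the sex of the mice and do not say whether replicates came from separate animals, so each p-value rests on a spread between libraries that may be technical in part.

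Values are taken to be read counts per gene that the authors had divided by a size factor per library, called normalised counts. The recovered depth was 16009755 to 22519269 reads in Stim1KO Stat3C and 23092044 to 51347367 in Stat3C. Stim1 had 811, 794 and 687 in Stim1KO Stat3C, against 1999, 1969 and 1931 in Stat3C (log2 difference -1.37, SE 0.08, limma adjusted p = 0.000287). Stat3C replicate 2 stood apart, with a chi-square per degree of freedom of 48.2 and 33.4 against replicates 1 and 3 of its group, which differed from each other by 9.78. The 5 T helper markers, which include Cd3e and Cd4, summed to 36161 to 39567 normalised counts in Stim1KO Stat3C and 29495 to 32925 in Stat3C, and the 5 Th17 markers, which include Il17a and Il17f, to 4389.6 to 5212 and 14237 to 18715. The summed level of 5 B cell markers was 18.3 to 35.8 normalised counts in Stim1KO Stat3C and 110.8 to 335 in Stat3C, with Ms4a1 at 0 in every Stim1KO Stat3C library, and that of the cytotoxic T cell markers Cd8a and Cd8b1 was 111 to 159 against 277 to 453. The 5 myeloid markers summed to 5.97 to 17.2 in Stim1KO Stat3C and to 17.4 to 166 in Stat3C. Csf1r and Adgre1 were at 0 in every Stim1KO Stat3C library and in Stat3C replicate 3. All myeloid markers were highest in Stat3C replicate 2, with Itgam at 14.7, 72.5 and 7.75 in Stat3C replicates 1, 2 and 3. The 3 NK cell markers summed to 2.15 to 13.7 in Stim1KO Stat3C and 4.84 to 13.6 in Stat3C. Klrb1c was at 0 in every Stim1KO Stat3C library and in Stat3C replicate 2. Apart from the NK cell sums, which overlapped, these marker sums were separate between the groups, the myeloid sums only by 17.2 against 17.4. The part of these markers in the results below was not tested. In such bulk RNA, fewer cells of a type and less RNA per cell cannot be told apart.

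Each synthetase recognises its amino acid and the matching tRNAs, activates the amino acid with ATP and transfers it to the tRNA, which then delivers it to the ribosome. The enzymes fall into class I and class II, which have unrelated catalytic folds. In animal cells most amino acids have a cytosolic synthetase and a separate, nuclear-encoded mitochondrial one, while Gars and Kars each encode both forms. Mitochondria make glutaminyl-tRNA indirectly, by an amidotransferase of the subunits encoded by Qrsl1, Gatb and Gatc acting on glutamate already attached to the tRNA. Several cytosolic synthetases are held together in the multisynthetase complex by the scaffold proteins AIMP1, AIMP2 and AIMP3, the last of them encoded by Eef1e1. The charged tRNAs of mitochondria serve the making of the few respiratory chain proteins that mitochondrial DNA encodes. Activated T cells raise protein synthesis strongly, and many cytosolic synthetase genes are known targets of ATF4, the transcription factor of the amino acid response.

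The family leaned slightly lower in Stim1KO Stat3C cells, with differences of individual genes that were mostly too small to pass the test. Of the 39 genes, 4 fell, none rose and 35 did not pass (limma on log2(value + 1), adjusted p under 0.05 over all 11947 genes tested). The genes that fell were the mitochondrial synthetase genes Yars2, Mars2 and Iars2 and the cytosolic Vars. At an unadjusted p under 0.05, 18 of the 39 were lower and 0 higher, whereas 14.0% of all tested genes were lower at that level, and edgeR and DESeq2 on the recovered reads called 0 members higher too. Of all tested genes 4.96% fell and 8.62% rose, against 10.3% and 0 of the members, a share that rests on 4 genes. The log2 difference was negative for 34 of 39 members, against 50.2% of all tested genes. For 15 members all 3 Stim1KO Stat3C values lay below all 3 Stat3C values and for 0 members all lay above, while 16.4% of all tested genes were separated downward and 19.2% upward. The median log2 difference was -0.15 over the cytosolic and -0.17 over the mitochondrial genes, and -0.0011 over all tested genes.

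**Figure D1:**
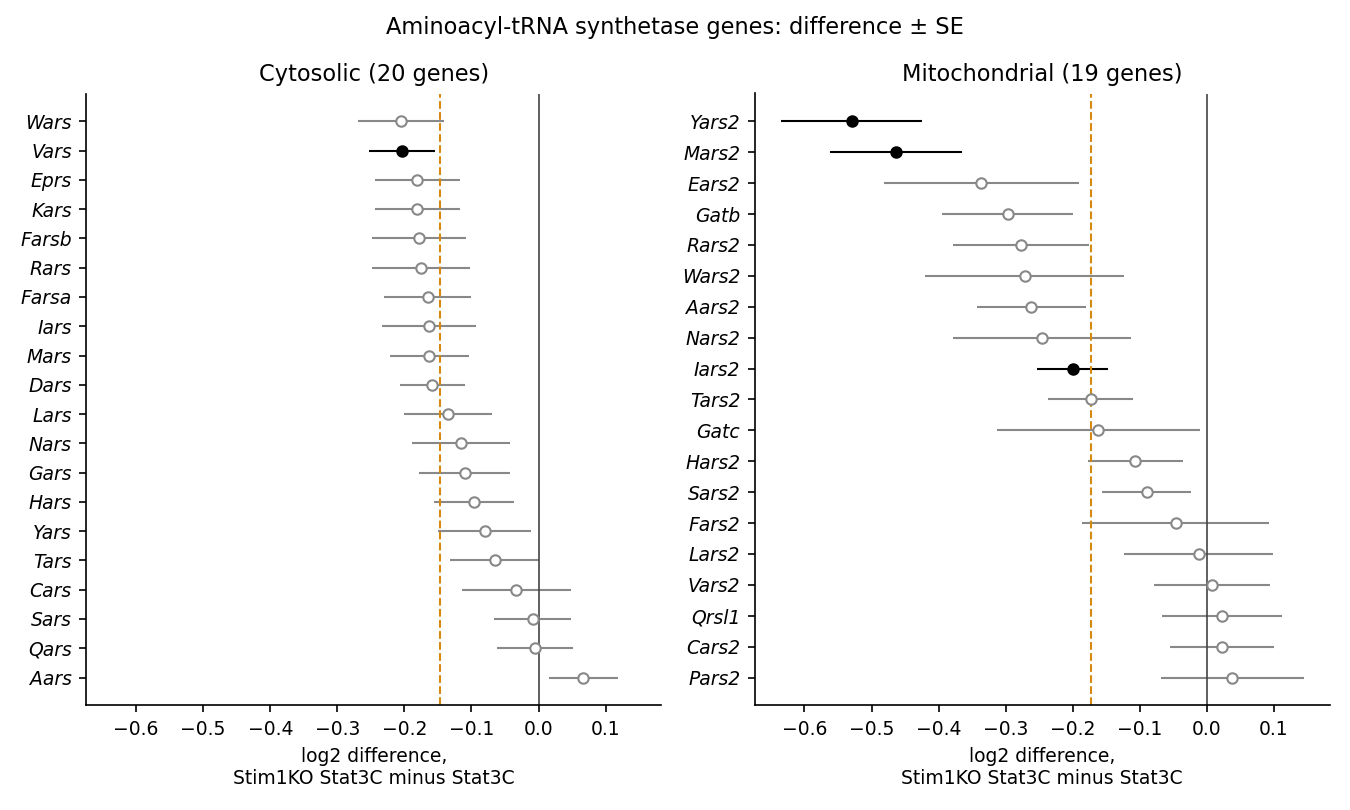
Log2 difference, Stim1KO Stat3C minus Stat3C (log2(value + 1) scale), for each of the 20 cytosolic (left) and 19 mitochondrial genes (right), with its standard error. Filled points passed an adjusted p of 0.05 and the dashed line is the median of the panel; 34 of the 39 points lie left of 0, and Yars2 and Mars2 lie farthest to the left.

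The count of calls depended on single libraries, as did the share of all tested genes called lower. It was 0 when Stim1KO Stat3C replicate 1 or 2 or Stat3C replicate 1 or 3 was left out. In those fits 1.17% to 1.79% of all tested genes were called lower. The count was 2, Yars2 and Mars2, without Stim1KO Stat3C replicate 3, where the share of all tested genes was 3%. It was 14 without Stat3C replicate 2, a library that lay apart from replicates 1 and 3 of its group. There the share of all tested genes was 9.98%. The direction changed less than the calls, with 32 to 35 of the 39 log2 differences negative in each of these 6 fits. The fits share most of their libraries, so they are not independent checks of the direction.

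Among the mitochondrial genes, 3 of 19 (15.8%) fell, against 4.96% of all tested genes, a share that rests on 3 genes. Yars2, which charges mitochondrial tyrosine tRNA (chromosome 16, 16302965 to 16309640, plus strand, GRCm38), had 679, 798 and 830.0 normalised counts in Stim1KO Stat3C libraries, against 1198, 983 and 1150.2 in Stat3C libraries. All 3 Stim1KO Stat3C values lay below the lowest Stat3C value, and the mean fell by 30.7% (log2 difference -0.53, SE 0.11, adjusted p = 0.0161). It was the largest difference of the family, and it lost its call in 5 of 17 alternative settings, each time with 1 library left out or the variance trend dropped (adjusted p over all settings 0.00018 to 0.0711). None of its 50-base transcript words was found in the transcripts of another gene in GENCODE.

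Mars2, the mitochondrial methionyl-tRNA synthetase whose product also feeds the formylated initiator tRNA (chromosome 1, 55237177 to 55248470, plus strand), had 403, 372 and 396 normalised counts in Stim1KO Stat3C libraries, against 595, 489 and 535 in Stat3C libraries. The groups did not overlap, and the Stim1KO Stat3C libraries lay close together (log2 difference -0.46, SE 0.10, adjusted p = 0.0205; lost in 5 of 17 settings, adjusted p 0.00133 to 0.0955). Iars2, for mitochondrial isoleucine (chromosome 1, 185284726 to 185329396, minus strand), had 2566, 2767 and 2749 normalised counts in Stim1KO Stat3C libraries, against 3152, 3082 and 3046 in Stat3C libraries. Its mean fell by 12.9% and the values were separated (log2 difference -0.20, SE 0.05, adjusted p = 0.0433), and the call was lost in 8 of 17 settings (adjusted p 0.00752 to 0.169). Exons of Iars2 overlap those of Rab3gap2 on the opposite strand, and 22.7% of its 50-base words occur in transcripts of other genes. Rab3gap2 had 1834, 1685 and 1708 in Stim1KO Stat3C, against 1315, 1401 and 1313 in Stat3C and rose (log2 difference 0.37, SE 0.06, adjusted p = 0.00818). The library kit keeps the strand, but no source used here states the strand setting of the counting, and how many Rab3gap2 reads the Iars2 count holds cannot be told.

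The 250 bases before the annotated start of these 3 genes are shown because they are the mitochondrial members that fell, as RefSeq sequence of GRCm38.p6 read 5′ to 3′ on the strand of the gene, with CpG dinucleotides in capitals. Yars2, chr16:16302715-16302964, plus strand:
Yars2: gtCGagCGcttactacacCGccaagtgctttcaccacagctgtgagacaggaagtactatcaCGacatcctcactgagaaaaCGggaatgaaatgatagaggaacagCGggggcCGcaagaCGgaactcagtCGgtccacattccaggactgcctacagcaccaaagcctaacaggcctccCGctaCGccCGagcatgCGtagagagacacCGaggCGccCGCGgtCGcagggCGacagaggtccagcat
Mars2, chr1:55236927-55237176, plus strand:
Mars2: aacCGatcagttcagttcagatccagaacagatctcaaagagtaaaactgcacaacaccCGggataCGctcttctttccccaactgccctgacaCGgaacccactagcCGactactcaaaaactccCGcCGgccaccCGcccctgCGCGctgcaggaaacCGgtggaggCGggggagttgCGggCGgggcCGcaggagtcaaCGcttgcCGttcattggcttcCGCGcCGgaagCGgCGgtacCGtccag
Iars2, chr1:185329402-185329651, minus strand:
Iars2: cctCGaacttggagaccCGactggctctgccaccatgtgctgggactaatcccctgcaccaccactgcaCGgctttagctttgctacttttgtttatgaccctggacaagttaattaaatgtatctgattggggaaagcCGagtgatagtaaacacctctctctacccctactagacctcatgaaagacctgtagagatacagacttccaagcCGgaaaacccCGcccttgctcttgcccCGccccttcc
Yars2 held 19 CpG dinucleotides and Mars2 held 23, against a median of 6 over the same stretch of 32851 promoter windows, of which 19.7% and 13.3% held at least as many. Iars2 held 7, a number that 46.3% of windows reached. The 30 windows of the 29 members that had one held 4 to 28, with a median of 13.5. The letters CCGGAAG, a core bound by ETS factors and searched on both strands, stood in the Mars2 window alone of these 3 and in 8.86% of all 300-base windows.

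The other mitochondrial synthetase genes did not pass the test. Of these, 5 synthetase genes and 1 amidotransferase gene still had groups that did not overlap, all lower in Stim1KO Stat3C. They were Aars2 for alanine (631 ± 31.3 in Stim1KO Stat3C and 757 ± 48.6 in Stat3C, mean ± SD with n = 3 in each group here and below, log2 -0.26, adjusted p = 0.069), Ears2 for glutamate (log2 -0.34, adjusted p = 0.158), Tars2 for threonine (log2 -0.17), Hars2 for histidine (log2 -0.11) and Sars2 for serine (log2 -0.09). Gatb, a subunit of the amidotransferase, had 307, 305 and 335 in Stim1KO Stat3C, against 408, 361 and 396 in Stat3C (log2 difference -0.30, SE 0.10, adjusted p = 0.0816). The groups overlapped for the other subunits, with Gatc at 420.4 ± 79.8 in Stim1KO Stat3C and 468 ± 58.6 in Stat3C (log2 -0.16, adjusted p = 0.5) and Qrsl1, the catalytic subunit, at 432 ± 26.8 in Stim1KO Stat3C and 425 ± 16.7 in Stat3C (log2 0.02, adjusted p = 0.885). None of the 3 subunit genes passed, 1 was lower at an unadjusted p under 0.05, and edgeR and DESeq2 called 0. Rars2 for arginine (log2 -0.28), Wars2 for tryptophan (log2 -0.27) and Nars2 for asparagine (log2 -0.25) had lower means with overlapping values. Fars2 for phenylalanine (log2 -0.05), Vars2 for valine (log2 0.01), Cars2 for cysteine (log2 0.02) and Pars2 for proline (log2 0.04) differed by less than their standard errors of 0.14, 0.09, 0.08 and 0.11.

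Lars2, the mitochondrial leucyl-tRNA synthetase, was by far the most abundant member in raw level, with 28404, 24698 and 22362 normalised counts in Stim1KO Stat3C libraries, against 25449.7, 22139 and 28549 in Stat3C libraries. The groups overlapped (log2 difference -0.01, SE 0.11, adjusted p = 0.952). Per exon length it reached 2279 normalised counts per kilobase, whereas the other 18 mitochondrial genes lay between 33.6 and 326. Shared words were searched only in GENCODE transcripts, and whether all reads counted here came from Lars2 messenger RNA was not tested. Lars2 alone made up 64.7% of the summed level of the 19 mitochondrial genes on average. That sum was 40783, 37527 and 35739.9 in Stim1KO Stat3C libraries, against 40451, 36308 and 43216 in Stat3C libraries, which overlap. Without Lars2 the sum was 12379, 12829 and 13378 in Stim1KO Stat3C libraries, against 15001, 14169 and 14667 in Stat3C libraries, with every Stim1KO Stat3C library below every Stat3C library and means that differed by -12.0%.

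**Figure D2:**
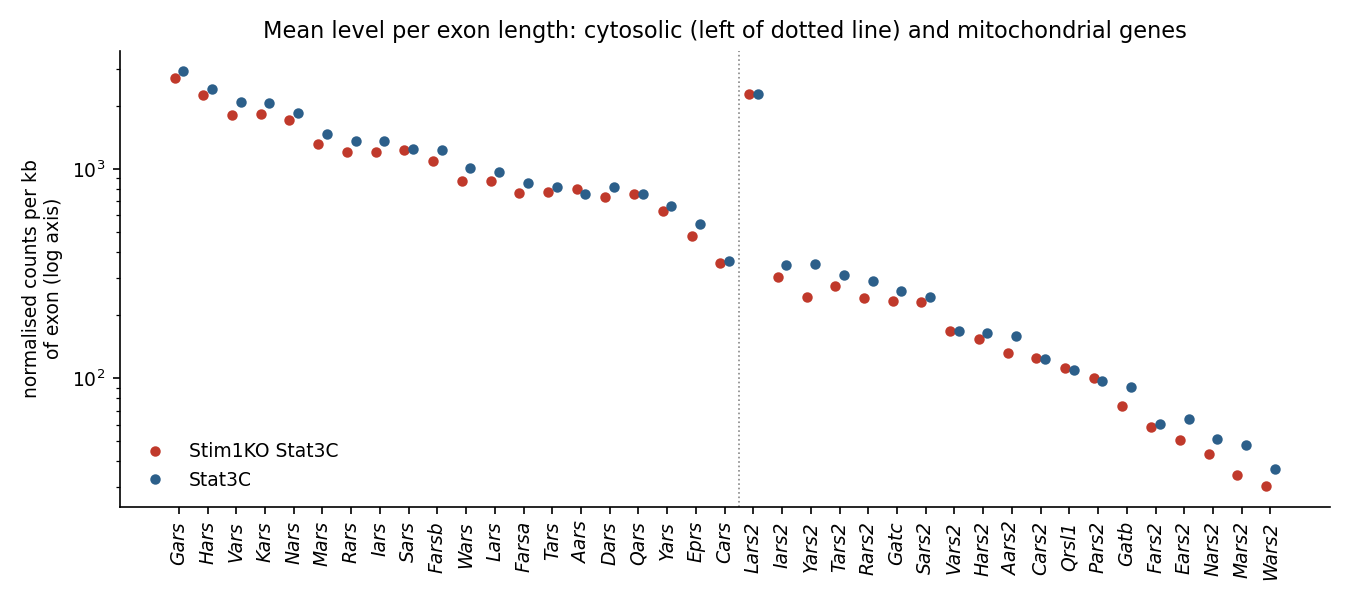
Mean normalised counts per kilobase of exon (log axis, n = 3 libraries per point) for Stim1KO Stat3C (red) and Stat3C (blue), cytosolic genes left and mitochondrial genes right of the dotted line, each in falling order. Apart from Lars2 no mitochondrial gene lies above 353, the level of Yars2 in Stat3C, and no cytosolic gene below 356, the level of Cars in Stim1KO Stat3C.

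Among the cytosolic genes, 1 of 20 fell, a share close to the 4.96% of all tested genes. Vars, for valine (chromosome 17, 35000987 to 35016322, plus strand), had 9915, 10623 and 9965 normalised counts in Stim1KO Stat3C libraries, against 11951, 11444 and 11726 in Stat3C libraries and its mean fell by 13.1% (log2 difference -0.20, SE 0.05, adjusted p = 0.0311). The groups did not overlap, and the call was lost in 7 of 17 settings (adjusted p 0.000711 to 0.137). Wars, for tryptophan and known as a gene induced by interferon, had 3169, 3017 and 2870.0 in Stim1KO Stat3C, against 3321, 3709.9 and 3413 in Stat3C. Its difference was as large as that of Vars but the values spread more (log2 difference -0.21, SE 0.06, adjusted p = 0.0693).

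The 8 cytosolic genes of the multisynthetase complex all had negative log2 differences, from -0.18 to -0.0049, with a median of -0.16. None passed by limma, where 6 were lower at an unadjusted p under 0.05, edgeR called 0 and DESeq2 on recovered reads called 4 lower, Eprs, Kars, Mars and Dars. Eprs, a single protein that charges both glutamate and proline, had 8207, 9209 and 8638 normalised counts in Stim1KO Stat3C libraries, against 10269, 9204 and 10058 in Stat3C libraries. Only Stim1KO Stat3C replicate 2 reached the lowest Stat3C library, by a few counts (log2 difference -0.18, SE 0.06, adjusted p = 0.0989). Kars, for lysine, had 7658, 8189 and 8617 in Stim1KO Stat3C, against 9484, 8654 and 9584 in Stat3C, without overlap (log2 difference -0.18, SE 0.06, adjusted p = 0.0987). Dars, for aspartate, had 3124, 3175 and 3254 in Stim1KO Stat3C, against 3603, 3468 and 3589 in Stat3C, without overlap and with the smallest standard error of the complex (log2 difference -0.16, SE 0.05, adjusted p = 0.0662). Mars, for methionine, stood at 4511 ± 246 in Stim1KO Stat3C and 5047 ± 189 in Stat3C (log2 -0.16, adjusted p = 0.104) and shares 68 bases of exon with Ddit3 on the opposite strand, a gene that rose and is described below. Rars for arginine (log2 -0.18), Iars for isoleucine (log2 -0.16) and Lars for leucine (log2 -0.13) were lower by similar amounts without passing. Qars, for glutamine, stood at 4967 ± 302 in Stim1KO Stat3C and 4978 ± 45.1 in Stat3C (log2 -0.0049, adjusted p = 0.963).

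Of the 12 cytosolic genes outside the complex, 11 had negative differences, with a median of -0.10. Farsa and Farsb, the subunits of the phenylalanine enzyme, differed alike, at log2 -0.17 and -0.18 (adjusted p = 0.127 and 0.129). Gars, for glycine, had 8054, 8381 and 8879.7 in Stim1KO Stat3C, against 9277, 8357 and 9713 in Stat3C, with overlap (log2 difference -0.11, SE 0.07, adjusted p = 0.306). Nars for asparagine, Hars for histidine, Yars for tyrosine, Tars for threonine, Cars for cysteine and Sars for serine ranged from log2 -0.12 to -0.01, and the lowest adjusted p among them was 0.304. Aars, for alanine, was the only cytosolic gene with a positive difference, at 7399.8 ± 266 in Stim1KO Stat3C and 7065 ± 268 in Stat3C (log2 difference 0.07, SE 0.05, adjusted p = 0.415), and part of its exons overlaps Exosc6 on the same strand, with 13.8% of its 50-base words shared. Among the other members, Fars2, Farsb, Iars, Vars2, Hars and Cars2 share 5.15% (Cars2) to 8.85% (Fars2) of such words with other genes, and how far this moves their counts is not known.

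**Figure D3:**
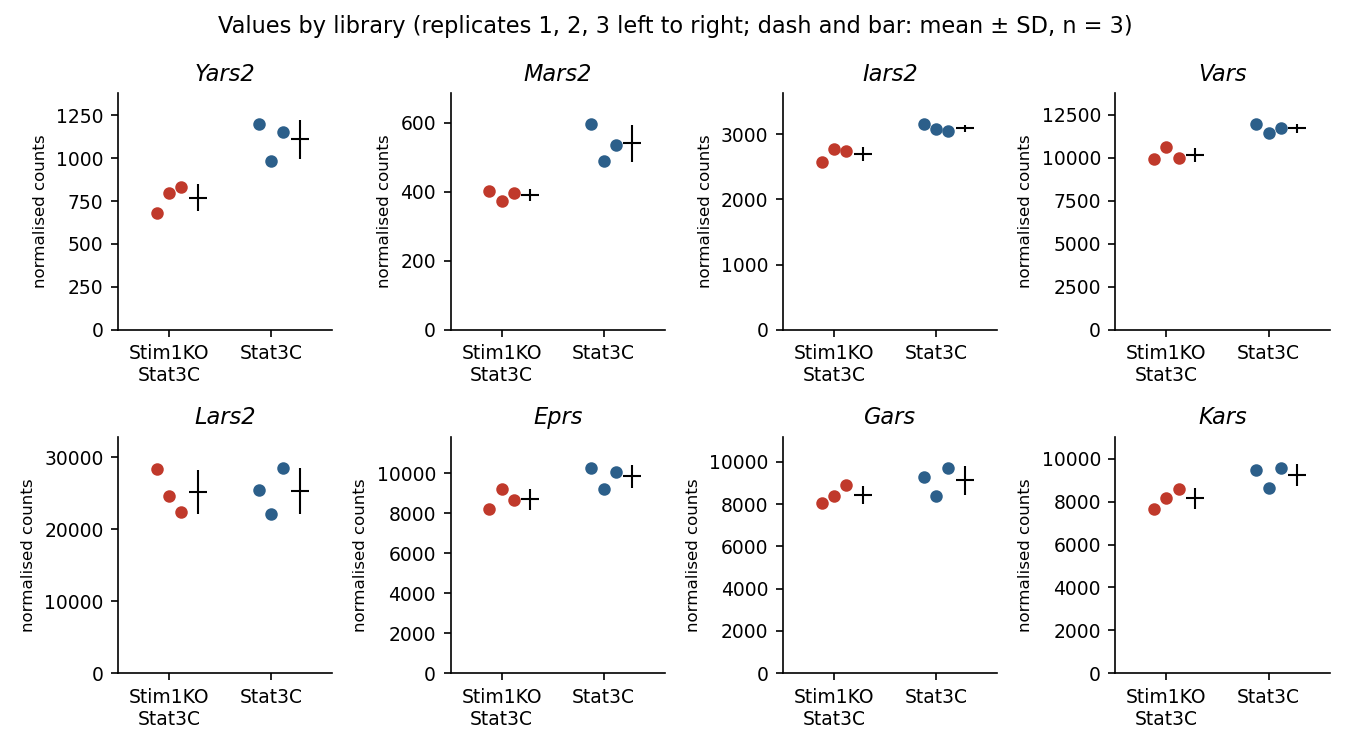
Normalised counts by library for the 4 genes that passed the test (top) and the 4 most abundant genes that did not (bottom), Stim1KO Stat3C in red and Stat3C in blue, with mean ± SD of the 3 libraries beside them; each axis starts at 0. In the top row the red points lie below all blue points, while in the bottom row Lars2, Eprs and Gars overlap and Kars does not.

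All 4 genes that fell encode class I enzymes, 22.2% of the 18 members of that class alone, against 4.96% of all tested genes. Of 18 members of class I alone, 4 fell and 0 rose, and of 17 of class II alone none passed by limma, where 6 were lower and 0 higher at an unadjusted p under 0.05, edgeR called 0 and DESeq2 called 2 lower (the bifunctional Eprs and the 3 amidotransferase genes are counted in neither). The median log2 difference was -0.17 over class I and -0.11 over class II, and the difference between the classes was not tested.

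The cytosolic genes moved together from library to library. Stat3C replicate 2 was the lowest of its group for 19 of 20 cytosolic and 12 of 19 mitochondrial genes, and Stim1KO Stat3C replicate 1 was the lowest of its group for 16 of 20 and 9 of 19. How often these libraries were lowest over all tested genes was not counted, and Stat3C replicate 2 stood apart across the whole table. The median deviation of the 20 cytosolic genes from their own means was -0.12, -0.03 and -0.03 in Stim1KO Stat3C and 0.10, -0.04 and 0.12 in Stat3C, in log2 units. Stat3C replicate 2 thus stood at the level of Stim1KO Stat3C replicates 2 and 3. The summed cytosolic level was 105694, 112138 and 111582 in Stim1KO Stat3C libraries, against 122317, 112247 and 123713 in Stat3C libraries, so that Stim1KO Stat3C replicate 2 and Stat3C replicate 2 nearly met, and the means differed by -8.06%. For the mitochondrial genes the median deviation was -0.15, -0.07 and -0.04 in Stim1KO Stat3C and 0.11, 0.02 and 0.10 in Stat3C, with all 3 Stim1KO Stat3C libraries below all 3 Stat3C libraries. The same medians over all tested genes stayed between -0.0091 and 0.0059 in every library. The median coefficient of variation over the cytosolic genes was 5.11% in Stim1KO Stat3C and 6.41% in Stat3C. Over the mitochondrial genes it was 6.68% in Stim1KO Stat3C and 7.69% in Stat3C.

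**Figure D4:**
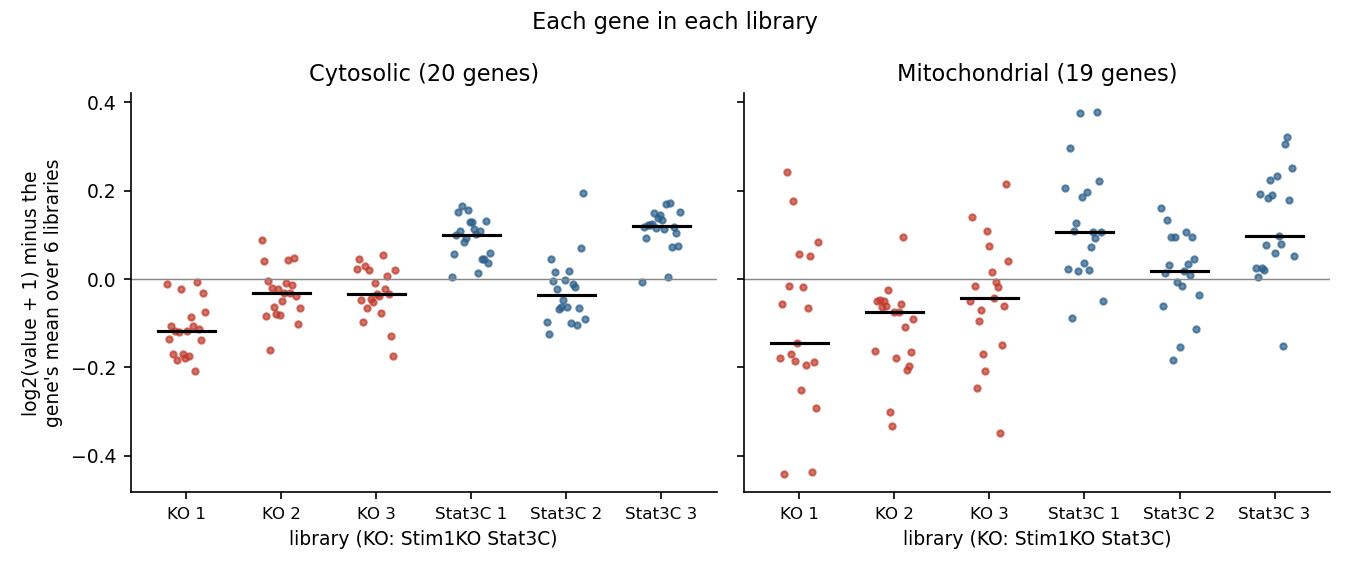
For each library, the log2(value + 1) of each gene minus the mean of that gene over the 6 libraries, for cytosolic (left) and mitochondrial genes (right); the black bar is the median. Stat3C replicate 2 has a cytosolic median of -0.04, close to Stim1KO Stat3C replicates 2 and 3, whereas replicates 1 and 3 of Stat3C lie at 0.10 and 0.12.

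For 14 amino acids the level of the mitochondrial enzyme gene could be set against that of its cytosolic counterpart in the same library (Fars2 against Farsa for phenylalanine), a ratio that a scaling of the whole library cannot change. As a share of the Yars level, Yars2 reached 18.7, 21.8 and 21.4% in Stim1KO Stat3C, against 30.1, 27.4 and 27.1% in Stat3C. As a share of Mars, Mars2 reached 9.52, 7.97 and 8.54% in Stim1KO Stat3C, against 11.5, 10.1 and 10.4% in Stat3C. As a share of Aars, Aars2 reached 8.50, 8.02 and 9.08% in Stim1KO Stat3C, against 11.0, 11.4 and 9.77% in Stat3C. In these 3 pairs the mitochondrial partner was lower relative to the cytosolic one in every Stim1KO Stat3C library. The reverse held for Vars2, which reached 8.80, 9.18 and 9.05% in Stim1KO Stat3C, against 8.22, 8.17 and 7.01% in Stat3C, as a share of Vars. The ratio of Iars2 to Iars overlapped between the groups, at 42.8, 41.7 and 42.3% in Stim1KO Stat3C, against 42.0, 47.3 and 41.1% in Stat3C. The remaining 9 pairs overlapped as well, and 10 of the 14 differences in ratio were negative. With 3 libraries against 3 the exact two-sided permutation test cannot go below p = 0.1, which these 4 pairs reached (adjusted over the 14 pairs, p = 0.35).

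Levels between genes can be compared per exon length. The cytosolic genes had a median of 1053 normalised counts per kilobase and ranged from 360.2 (Cars) to 2814 (Gars), and Hars (2334), Vars (1950.3) and Kars (1948) came next among them. The mitochondrial genes had a median of 146, with Iars2 (326) and Yars2 (298) after Lars2 and with Mars2 (41.2) and Wars2 (33.6) at the low end. The exon lengths come from all GENCODE transcripts of a gene, so genes with long or rare alternative exons are placed too low.

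Genes that work with the synthetases were examined as 10 lists. Of the 113 list genes tested, 7 fell and 4 rose, 9.73% in all where 13.6% of all tested genes passed. Without Stat3C replicate 3, 10 of the 11 lost their call, and Ddit3, described below, kept it in every setting. In the fit without that library 651 genes passed across the table, against 1623 with all libraries. The list with the most genes that fell was that of mitochondrial translation. Of its 10 factors 3 fell and 0 rose by limma, with a median log2 difference of -0.09. At an unadjusted p under 0.05 and by edgeR and DESeq2, 0 were higher. The share that fell was 30%, against 4.96% of all tested genes, and it rests on 3 genes. Tufm, which brings charged tRNA to the mitochondrial ribosome, had 3692, 3653 and 3792 normalised counts in Stim1KO Stat3C libraries, against 4277, 4193 and 4608 in Stat3C libraries (log2 difference -0.23, SE 0.05, adjusted p = 0.0287). Tsfm, its nucleotide exchange factor, had 804, 816 and 866 in Stim1KO Stat3C, against 1054, 1021 and 1187 in Stat3C (log2 difference -0.39, SE 0.08, adjusted p = 0.0168). Gfm1, the translocase, had 2271, 2505 and 2516 in Stim1KO Stat3C, against 3291, 2849 and 3305 in Stat3C (log2 difference -0.37, SE 0.08, adjusted p = 0.0177). The values of the groups were apart in each of the 3. Gfm2, which splits mitochondrial ribosomes after termination, was lower without passing (log2 -0.20, adjusted p = 0.0684), and the initiation factor genes Mtif2 and Mtif3 had log2 differences of 0.02 and 0.03.

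The mitochondrial tRNA processing list had 1 of 12 higher (8.33%, against 8.62% of all tested genes) and none lower. The gene that rose was Hsd17b10, a subunit of mitochondrial RNase P, with 2902, 2369 and 2424 in Stim1KO Stat3C, against 1946, 2023 and 1991 in Stat3C (log2 difference 0.36, SE 0.08, adjusted p = 0.0252). Its partner in that enzyme, Trmt10c, was lower without passing (log2 -0.21, adjusted p = 0.129), and at an unadjusted p under 0.05 limma had 3 genes of the list lower while edgeR and DESeq2 called 1 lower each.

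On the cytosolic side the 3 scaffold genes of the multisynthetase complex were lower without passing, at 1871 ± 73.4 in Stim1KO Stat3C and 2111 ± 108 in Stat3C for Aimp1, 1619 ± 38.2 in Stim1KO Stat3C and 1953 ± 203 in Stat3C for Aimp2 and 1534 ± 206 in Stim1KO Stat3C and 2026 ± 329 in Stat3C for Eef1e1 (log2 -0.17, -0.27 and -0.40, adjusted p = 0.103, 0.0662 and 0.095). All 3 had an unadjusted p under 0.05, and DESeq2 called 2 of them lower and edgeR 0. Of 5 cytosolic elongation factor genes none passed, 2 were lower at an unadjusted p under 0.05, and DESeq2 called 2 lower and edgeR 0. The most abundant of them were Eef1a1, which delivers charged tRNA to the ribosome (log2 -0.06, adjusted p = 0.648), and Eef2 (log2 -0.09, adjusted p = 0.328). In tRNA maturation and export 1 of 21 genes was higher at an unadjusted p under 0.05, and 0 by edgeR and DESeq2. By limma 2 of the 21 fell (9.52%, against 4.96% of all tested genes) and 0 rose. They were Xpot, the exportin that carries tRNA out of the nucleus, with 3779.7, 4315 and 4311 in Stim1KO Stat3C, against 5167, 4891 and 5169 in Stat3C (log2 difference -0.30, SE 0.06, adjusted p = 0.0225), and Rpp14, a subunit of nuclear RNase P, with 912, 1051 and 1058 in Stim1KO Stat3C, against 1374, 1151 and 1390.5 in Stat3C (log2 difference -0.37, SE 0.10, adjusted p = 0.0409).

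Over 14 genes of RNA polymerase III, which transcribes tRNA genes, and its factors the median log2 difference was -0.0037. Maf1, the repressor of this polymerase, stood at log2 0.18 (adjusted p = 0.276). None passed among 5 genes of selenocysteine tRNA charging, where 1 was lower at an unadjusted p under 0.05 and edgeR and DESeq2 called 0, or among 8 editing and deacylase genes, where 1 was lower at that level, DESeq2 called 1 and edgeR 0. The most abundant were Sephs2 (log2 -0.04) and Sephs1 (log2 -0.14) in the first list and Aarsd1 (log2 -0.16) and Dtd1 (log2 -0.21) in the second. Of 13 amino acid transporter genes tested 1 fell (7.69%, against 4.96% of all tested genes). It was Slc6a6, the taurine transporter (log2 difference -0.22, SE 0.05, adjusted p = 0.0335). Slc7a5 and Slc3a2, the chains of the leucine transporter, stood at log2 -0.06 and 0.06. Slc7a11 was below the filter.

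**Figure D5:**
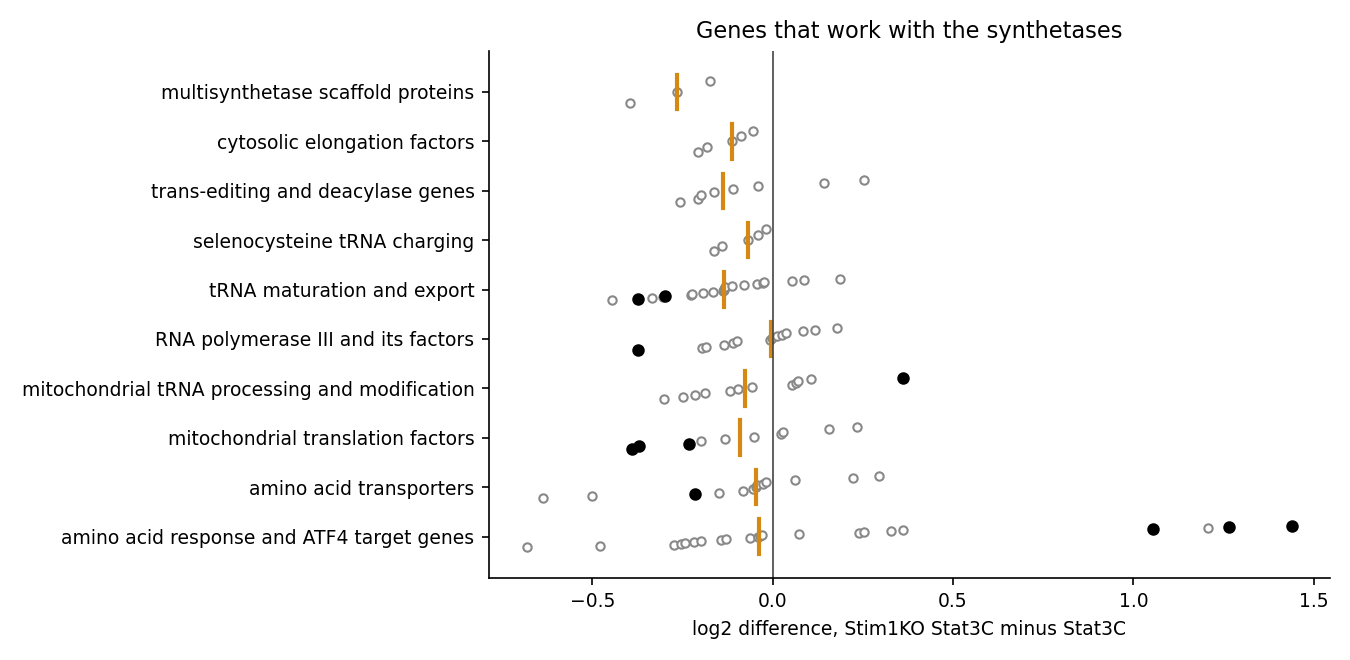
Log2 difference, Stim1KO Stat3C minus Stat3C, of each tested gene of the 10 lists, with filled points past an adjusted p of 0.05 and a bar at the median of the list. Medians lie between -0.27 and -0.0037, the filled points of the mitochondrial translation factors lie left of 0, and those of the amino acid response list lie right of 1.

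In the amino acid response list, of 22 genes 3 rose and none fell by limma. The share that rose was 13.6%, against 8.62% of all tested genes, and it rests on 3 genes. At an unadjusted p under 0.05 limma had 4 lower and 4 higher, while edgeR called 0 lower and DESeq2 1. Ddit3, which encodes CHOP, had 408, 314 and 288 normalised counts in Stim1KO Stat3C libraries, against 128, 192 and 166 in Stat3C libraries (log2 difference 1.06, SE 0.19, adjusted p = 0.0113). Chac1, a glutathione-degrading enzyme, had 57.5, 47.2 and 58.7 in Stim1KO Stat3C, against 19.9, 21.2 and 25.2 in Stat3C (log2 difference 1.27, SE 0.26, adjusted p = 0.0195), and Atf3, a stress-induced repressor, had 388, 206 and 208 in Stim1KO Stat3C, against 74.5, 147 and 74.6 in Stat3C (log2 difference 1.44, SE 0.33, adjusted p = 0.0279). In all 3 the groups did not overlap. The call of Atf3 was lost in 7 of 17 settings and that of Chac1 in 6 of 16. Atf4 itself stood at 9498 ± 314 in Stim1KO Stat3C and 9798 ± 966 in Stat3C (log2 -0.04, adjusted p = 0.74), and Asns, for asparagine synthesis, had 1515, 1709.6 and 1584 in Stim1KO Stat3C, against 1119.5, 1241 and 1488 in Stat3C, all higher in Stim1KO Stat3C without passing (log2 difference 0.33, SE 0.11, adjusted p = 0.0772). The biosynthetic genes Phgdh (log2 -0.25), Shmt2 (log2 -0.20), Mthfd2 (log2 -0.24) and Psat1 (log2 -0.14) had lower means without passing.

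ATF4 binds a composite element together with a C/EBP-family partner, and its core letters TTNCATCA, with N any base, were searched on both strands of the RefSeq promoter windows, which run from 250 bases before to 50 after the annotated start. They occurred in 3.97% of 32851 windows. A count over the family is void, because 29 of the 39 members (74.4%) had a window, with none for Cars, Gatb, Hars, Hars2, Lars, Nars, Pars2, Rars, Vars and Wars. Members whose window held the letters are shown with 30 bases around a match, together with the 7 genes of the amino acid response list that held them, of 21 with a window, to set the element beside the measured differences. The capitals mark the match, each line is read 5′ to 3′ on the strand of the gene, and the build is GRCm38.p6.
Aars, chr8:111033840-111033869, plus strand: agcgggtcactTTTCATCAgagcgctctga
Gars, chr6:55037960-55037989, plus strand: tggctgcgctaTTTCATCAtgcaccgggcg
Iars, chr13:49682126-49682155, plus strand: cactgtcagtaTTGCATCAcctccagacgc
Tars, chr15:11399655-11399684, minus strand: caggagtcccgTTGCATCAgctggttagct
Yars, chr4:129189895-129189924, plus strand: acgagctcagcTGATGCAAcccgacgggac
Asns, chr6:7693214-7693243, minus strand: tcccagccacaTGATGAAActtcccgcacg
Atf3, chr1:191183425-191183454, minus strand: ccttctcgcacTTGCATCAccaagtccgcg
Chac1, chr2:119351038-119351067, plus strand: cttccctgccgTTGCATCActcctgccagg
Nupr1, chr7:126625562-126625591, minus strand: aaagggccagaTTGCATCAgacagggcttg
Pycr1, chr11:120643833-120643862, minus strand: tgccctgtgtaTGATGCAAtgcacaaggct
Trib3, chr2:152344028-152344057, minus strand: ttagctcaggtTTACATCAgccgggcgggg
Vldlr, chr19:27216809-27216838, plus strand: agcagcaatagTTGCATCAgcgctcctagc
The synthetase genes with the element had log2 differences of 0.07 for Aars, -0.11 for Gars, -0.16 for Iars, -0.07 for Tars and -0.08 for Yars and adjusted p from 0.153 (Iars) to 0.531 (Tars). Of the 7 response genes, Chac1 and Atf3 rose, with log2 differences of 1.27 and 1.44, and the other 5 did not pass, with 1.21 for Nupr1, 0.33 for Asns, 0.24 for Trib3, -0.27 for Pycr1 and -0.68 for Vldlr. Ddit3, which rose, did not hold these letters in its window. The match shown begins 9 bases after the start in Aars, and 30 and 15 bases before it in Gars and Tars. It is a description of letters and not of binding.

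Outside the list of 39, and chosen after its values were seen, Tarsl2, a paralogue of Tars, had 311, 382 and 299.5 in Stim1KO Stat3C, against 467, 477 and 413 in Stat3C and fell (log2 difference -0.46, SE 0.12, adjusted p = 0.0432). Its call was lost in 8 of 17 settings.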

How the data were processed

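RNA of 6 libraries, 3 Stim1KO Stat3C and 3 Stat3C, was turned, 100 ng each, into stranded mRNA libraries, per the labels' protocols. TopHat2 2.1.1, HTSeq 0.11.1, DESeq2 1.22.2 and build mm10 stand in the submitters' processing notes, without roles. For gene models and strand setting, nothing is given in the sources used here. The deposited values are a normalised signal, taken to be read counts divided by the authors by a size factor, since in each column all values above 0 (100%) came out whole within 0.01 after division by 1 step. For Stim1KO Stat3C replicate 3 the step, 0.995, lies too close to 1 to tell from rounding. The 27 rows with date-like names (at most 0.217% of reads) were left out.

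The test was limma 3.58.1 (R 4.3.3) on log2(value + 1), with a variance trend and two-sided, for genes with a mean of at least 10 and with Benjamini-Hochberg adjustment over all of them. edgeR 4.0.16 and DESeq2 1.42.0 were run on recovered reads as alternatives. Pseudocount, filter, scaling, variance trend, quality weights and each library left out were varied too, and edgeR without Stim1KO Stat3C replicate 3 was added after seeing the data. The steps were tested on simulated data. In a chi-square test of recovered reads, every pair of libraries differed by at least 8.41 per degree of freedom. Replicates were numbered in accession order. Text named all members and, per list, up to 4 genes past the threshold or the 2 most abundant, and other genes named were chosen after their values were seen. Some items are not reported here. Members and lists were chosen with earlier results of these data known. Positions, exon lengths and shared words came from GENCODE M21 (GRCm38, the same build as mm10), promoters from RefSeq.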

Additional observations from a re-analysis of the deposited data

How the results depend on the processing

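The number of genes called across the table was 1623, 827 without a variance trend, 3959 with library quality weights and 2250 with DESeq2. It was 922 with edgeR without Stim1KO Stat3C replicate 3, and 617 to 2899 with 1 library left out. The share of the genes tested that were called lower was 4.96%, 1.87% without a variance trend, 15.1% with library quality weights and 8.40% with DESeq2. This share was 2.37% with edgeR without Stim1KO Stat3C replicate 3, and 1.17% to 9.98% with 1 library left out. The cytosolic synthetase genes that fell numbered 1, 0 without a variance trend, 13 with quality weights, 6 with DESeq2, 0 with edgeR without Stim1KO Stat3C replicate 3, and 0 to 10 with 1 library left out. The mitochondrial ones numbered 3, 1 without a variance trend, 9 with quality weights, 1 with edgeR without that library, and 0 to 4 with 1 library left out. In these fits and in all others run, no member rose. The genes of the partner lists that passed numbered 11, 4 without a variance trend, 40 with quality weights, 19 with DESeq2, 4 with edgeR without that library, and 2 to 30 with 1 library left out. Log2 differences that changed sign belonged to members that did not pass. With 1 library left out their ranges were Cars -0.104 to 0.0258, Qars -0.0335 to 0.0466, Sars -0.0631 to 0.0253, Cars2 -0.0424 to 0.0569, Fars2 -0.179 to 0.0653, Lars2 -0.107 to 0.0767, Pars2 -0.0289 to 0.0847, Vars2 -0.0664 to 0.0622 and Qrsl1 -0.0139 to 0.0732. With library quality weights the log2 difference turned for Qars 0.00221, Cars2 -0.022, Fars2 0.0137, Pars2 -0.0409 and Vars2 -0.0169. With edgeR on recovered reads without Stim1KO Stat3C replicate 3 the log2 difference turned for Cars2 -0.0533, Fars2 0.0592, Lars2 0.0543, Pars2 -0.00224 and Qrsl1 -0.00102. With median-of-ratios scaling the log2 difference turned for Vars2 -0.00438. With edgeR on recovered reads the log2 difference turned for Vars2 -0.00214. With DESeq2 on recovered reads the log2 difference turned for Vars2 -0.00937. The signs of all other members, of the genes of the partner lists that passed, and of Tarsl2 held in every alternative run. No paired analysis was possible because the labels give the libraries no shared replicate numbers. The cause of these changes was not tested. At these depths a count of 0 allows up to 3 reads, 2.99 to 4.11 normalised counts in Stim1KO Stat3C and 1.30 to 2.91 in Stat3C. How much of the spread between libraries is counting error was not tested.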
